A study of Mus musculus with 6 samples.

Results

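The genes described here encode the protein subunits of the mitochondrial ribosome, taken as every gene with an Mrpl symbol (large subunit) or an Mrps symbol (small subunit). They were found by symbol among probe sets assigned to a single gene, and each gene was read from its brightest probe set, by the mean of all 6 arrays. This gave 77 of the 19938 genes tested, 48 of them Mrpl and 29 Mrps. For 8 of the 77 the array carried more than 1 probe set. Mrpl53 was measured only by a probe set shared with the neighbouring gene Ccdc142 and was left out.

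RNA was measured on 1 Affymetrix Mouse Gene ST array per sample, in 3 mouse osteosarcoma lines and 3 cultures of mouse osteoblasts, all of strain C57Bl6. The lines were OS_493H (hip tumour, labelled female, age 188), OS_494H (hip tumour, labelled male, age 190) and OS_716H (tibia tumour, labelled female, age 226), with no unit given for age. All 3 carry Rb fl/fl and p53 fl/fl alleles with Osx-Cre+, a Cre recombinase expressed from the Osterix promoter, which is active in the osteoblast lineage. The osteoblasts were KUSA4b10 cells, a bone marrow stromal line, held for 21 days at confluence in medium with 50 ug/ml ascorbate. Their labels list no floxed or Cre allele. The comparison therefore sets 3 tumour lines, each from a different tumour, against a single non-tumour line, and tumour origin, genotype, confluence and ascorbate cannot be told apart. The cultures are called cultures 1 to 3. The labels number them as replicates and as Ex1 to Ex3, which may or may not mark separate experiments. P-values measure only the spread between these samples, which may be technical.

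The mitochondrial ribosome translates the few proteins encoded by mitochondrial DNA, which are all subunits of the respiratory chain and of ATP synthase. Its RNAs come from mitochondrial DNA, whereas all of its proteins are encoded in the nucleus, made in the cytosol and imported. Some of these proteins descend from bacterial ribosomal proteins and others were gained by the mitochondrial ribosome. The large subunit forms peptide bonds and holds the exit tunnel facing the inner membrane, and the small subunit holds the messenger RNA and reads its codons. In bone, differentiating osteoblasts increase oxidative metabolism, and tumour cells often change the balance between respiration and glycolysis.

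Promoter sequences were available for 68 of the 77 genes, from RefSeq on build GRCm38.p6, as windows of 250 bases before and 50 bases after each start. Stretches upstream of the start are shown for the gene with the largest rise (Mrpl35), the gene with the largest fall (Mrpl23), 2 small subunit genes that rose (Mrps21 and Mrps18c) and the 3 genes with an exact match to the motif of the factor NRF1, all read 5′ to 3′ in the direction of the gene. Capitals mark the exact NRF1 motif in Mrpl32, Mrpl39 and Mrpl9, the same motif with the base after GCGCA left free in Mrps21 (read on the other strand), and the ETS motif CCGGAAG, also on the other strand, in Mrps18c. No capitals means that none of the motifs searched was found in the stretch shown.
Mrpl32, chr13:14613088-14613147, minus strand: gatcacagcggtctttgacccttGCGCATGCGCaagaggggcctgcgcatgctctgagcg
Mrpl39, chr16:84735335-84735394, minus strand: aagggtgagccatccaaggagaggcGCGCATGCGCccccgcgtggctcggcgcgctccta
Mrpl9, chr3:94443276-94443335, plus strand: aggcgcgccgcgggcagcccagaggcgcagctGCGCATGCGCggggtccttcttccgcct
Mrps21, chr3:95871555-95871614, minus strand: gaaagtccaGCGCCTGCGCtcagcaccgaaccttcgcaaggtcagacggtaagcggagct
Mrps18c, chr5:100798602-100798661, plus strand: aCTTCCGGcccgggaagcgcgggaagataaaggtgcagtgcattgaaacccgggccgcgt
Mrpl35, chr6:71823785-71823884, minus strand: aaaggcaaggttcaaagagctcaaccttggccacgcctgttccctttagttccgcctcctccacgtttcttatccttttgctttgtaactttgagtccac
Mrpl23, chr7:142532932-142533031, plus strand: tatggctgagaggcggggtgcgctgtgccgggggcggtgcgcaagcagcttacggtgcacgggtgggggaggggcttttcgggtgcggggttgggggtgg

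The arrays were checked against their labels before the comparison. Rb1 was at 10.67 ± 0.01 (SD, n = 3) in the cultures and at 9.61 ± 0.32 (SD, n = 3) in the lines, and fell by 1.05 on the log2 scale (limma, adjusted p = 0.00427). Which exons its probes cover was not determined. Xist was at 12.62 in OS_493H and at 5.31 and 5.50 in OS_494H and OS_716H, and the Y-linked Eif2s3y was at 10.11 in OS_716H, which is labelled female. OS_716H therefore goes against its labelled sex, and counts are also given without it. Cultures 1 and 3 resembled each other most, with 3 genes over 1 log2 unit apart, against 150 and 186 for the pairs with culture 2. The adipocyte marker list (14 genes measured) had a summed signal of 14.86 to 15.51 (log2) in the cultures and 12.10 to 13.24 in the lines, and 13 of its genes fell. All 19 proliferation genes rose, with a median difference of 2.12. Of 8 osteoblast markers 4 fell (Ibsp, Phex, Dmp1 and Pth1r), and Alpl, Sp7, Col1a1 and Dlx5 did not pass the test. Blood and osteoclast markers summed to 11.68 to 12.25 in the cultures and 10.83 to 11.34 in the lines. In that list Ctsk, the brightest, fell by 1.65, Acp5 and Cd14 rose (0.86 and 0.53), and the median of the 9 was -0.04. Endothelial markers summed to 9.07 to 9.11 and 9.12 to 9.94, where Tek stood at 9.05 in OS_493H and 7.52 in OS_716H, and 0 of the 6 passed limma's adjusted test or had an unadjusted p under 0.05. The part of these differences in the values below was not tested.

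Mitochondrial ribosomal protein transcripts were mostly a little higher in the osteosarcoma lines. The fitted difference was osteosarcoma minus osteoblast on the log2 scale. It was above 0 for 55 of the 77 genes (71.4%, against 45.0% of all genes) and below 0 for 22. Its median was 0.20, against -0.02 over all genes, and it ran from -0.95 to 1.31. At a Benjamini-Hochberg adjusted p under 0.05 in limma, 19 genes rose, 5 fell and 53 did not pass the test. Without culture 1 or without culture 3 only 8 rose and 1 fell, and without culture 2 11 rose and 3 fell. Calls over all genes also dropped, from 2622 that rose and 2274 that fell to 1533 and 1211 without culture 1. They were 1610 and 1350 without culture 3, and 2086 and 1793 without culture 2. Within the family, the calls held in each of the 6 fits without 1 array for 7 genes, Mrpl35, Mrps18c, Mrpl18, Mrps21, Mrpl13, Mrpl3 and Mrpl23. In all, 31.2% of the genes passed, where 24.6% of all genes did. All 77 genes were expressed above the median of all values, 7.53, in at least 1 group. Among the 11632 genes with that property, 38.4% were called, so the share of ribosomal genes lay above the first background and below the second. Their calls were split unevenly, with 24.7% higher and 6.49% lower, beside 21.0% and 17.5% of those brighter genes. The fitted difference of the brighter genes was above 0 for 51.4%, with a median of 0.02.

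The differences were small. For 68 of the 77 genes the fitted difference was under 0.5 in size, and only Mrpl35 changed by more than a factor of 2. All 3 lines lay above all 3 cultures for 35 genes (20.5% of all genes and 30.4% of brighter genes did so). They lay below for 8 genes (21.0% and 26.2%). In either direction the groups were apart for 43 genes, where they were for 41.5% of all and 56.6% of brighter genes, and for 34 they overlapped. At an adjusted p under 0.01, 7 genes passed (12.4% of all and 20.1% of brighter genes). When each array was centred on its own median, 26 genes rose and 2 fell, in place of 19 and 5. Over all genes 3129 then rose and 1800 fell, in place of 2622 and 2274, and the median of all genes moved from -0.02 to 0.04.

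**Figure D1:**
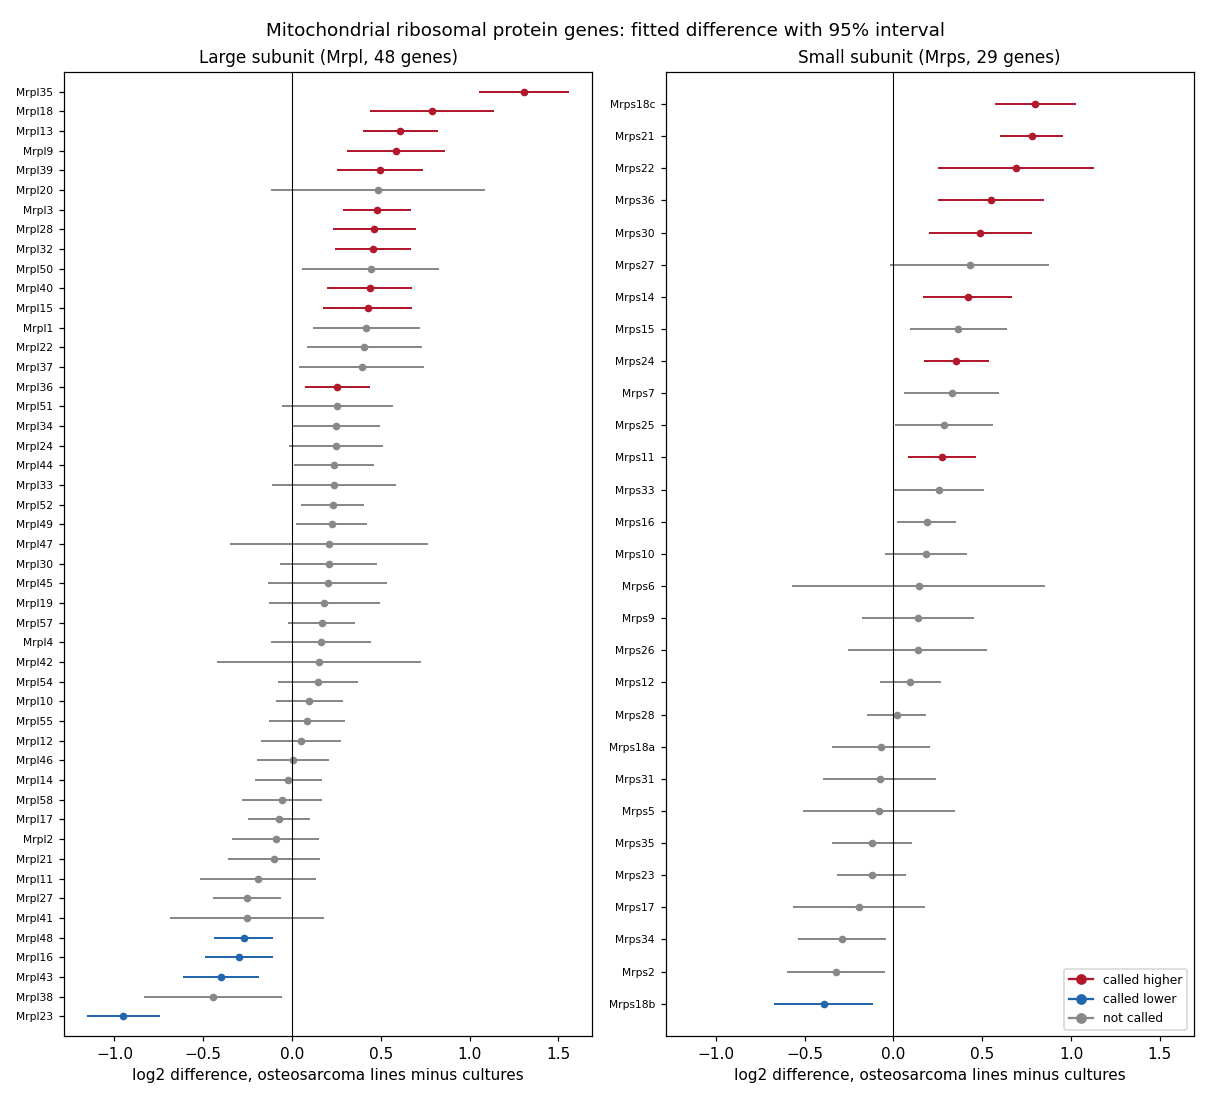
Fitted difference of each of the 77 genes (x axis, log2, osteosarcoma minus osteoblast) with its 95% interval, large subunit genes in one panel and small subunit genes in the other, coloured by whether the gene rose, fell or did not pass the test. Mrpl35 (1.31) and Mrpl23 (-0.95) sit apart from the rest at either end, and 68 of the 77 genes lie within 0.5 of 0.

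The large and the small subunit moved by nearly the same amount. Of the 48 Mrpl genes 11 rose (22.9%) and 4 fell (8.33%), with a median difference of 0.21. Of the 29 Mrps genes 8 rose (27.6%) and 1 fell (3.45%), with a median of 0.19. Over all genes 13.2% rose and 11.4% fell, and over brighter genes 21.0% and 17.5%. The large minus small difference of the subunit medians was 0.02. Array by array it lay between -0.08 and 0.01 in the lines and between -0.02 and 0.01 in the cultures. It was not tested, because the genes were chosen with results known. In structures of the mammalian mitochondrial ribosome Mrps30 and Mrps18a belong to the large subunit, and Mrps36 is now assigned to the oxoglutarate dehydrogenase complex. With genes placed that way, 12 of 50 large subunit genes rose (24.0%) and 4 fell (8.0%). Of 26 small subunit genes 6 rose (23.1%) and 1 fell (3.85%), and the medians were 0.21 and 0.16.

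Genes with a bacterial counterpart and genes found only in mitochondria were set side by side. Of the 46 with a bacterial counterpart 14 rose and 2 fell (median 0.21), and of the 30 specific to mitochondria 4 rose and 3 fell (median 0.16). As shares, 30.4% and 13.3% rose, beside 13.2% of all genes and 21.0% of brighter genes, and 4.35% and 10.0% fell, beside 11.4% and 17.5%. The difference between the 2 kinds was not tested. In the small subunit placed by structure (without Mrps30, Mrps18a and Mrps36), 5 of 16 genes with a bacterial counterpart rose and none fell. Of its 10 genes specific to mitochondria 1 rose and 1 fell.

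Mrpl35, a large subunit protein with a bacterial counterpart, had the largest rise. Its log2 values were 9.62, 9.72 and 9.67 in cultures 1 to 3 and 10.92, 11.18 and 10.83 in OS_493H, OS_494H and OS_716H. The lowest line was over 1 unit above the highest culture. The difference was 1.31 ± 0.10 (SE, n = 3 against 3), a 2.47-fold rise with adjusted p = 0.000754 in limma. It stayed called in each fit without 1 array, at an adjusted p of at most 0.0072. In the order of all genes by rise Mrpl35 stood at 581, so many genes outside the family rose more.

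Mrpl18 belongs to the central protuberance, the top of the large subunit, and its bacterial counterpart binds 5S ribosomal RNA. It was at 9.92, 9.93 and 9.88 in the cultures and at 10.61, 11.02 and 10.46 in the lines. The cultures lay within 0.05 of each other, and the lines were all higher with OS_494H at the top. The rise was 0.79 ± 0.14 (SE, limma adjusted p = 0.00954). Mrpl13, a large subunit protein of bacterial descent, was at 9.55, 9.56 and 9.57 in the cultures and 10.24, 10.02 and 10.25 in the lines. Unlike most of these genes it was lowest in OS_494H among the lines, and its rise was 0.61 (adjusted p = 0.00371).

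Mrpl3 lies near the peptidyl transferase centre, where peptide bonds form. It was at 11.06, 11.08 and 11.05 in the cultures and 11.43, 11.59 and 11.61 in the lines, a rise of 0.48 (limma adjusted p = 0.006). Its groups did not overlap. Mrpl32, a subunit matured by a protease of the inner membrane, was at 9.35, 9.35 and 9.43 in the cultures and 9.87, 9.93 and 9.69 in the lines, a rise of 0.46 (adjusted p = 0.0109). Mrpl39, a subunit gained in mitochondria, was at 10.990, 11.003 and 10.932 in the cultures and 11.51, 11.62 and 11.29 in the lines, a rise of 0.50 (adjusted p = 0.0128). Mrpl9, of bacterial descent, was at 9.18, 9.07 and 9.05 in the cultures and 9.53, 9.91 and 9.62 in the lines, a rise of 0.59 (adjusted p = 0.0112). In all 3 the lines were above the cultures, but each call was lost in a fit without 1 culture: Mrpl32 without culture 1 (adjusted p = 0.0535), Mrpl9 without culture 3 (0.0514), and Mrpl39 without culture 1 or culture 3. The other large subunit genes that rose were Mrpl28, Mrpl40, Mrpl15 and Mrpl36, by 0.46, 0.44, 0.43 and 0.25, and their calls were lost in 1, 4, 3 and 6 of the 6 fits without 1 array.

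Mrpl23 fell most. It encodes the protein that borders the exit tunnel, where the growing chain leaves the ribosome. Its log2 values were 11.50, 11.42 and 11.57 in the cultures and 10.66, 10.52 and 10.47 in the lines. Every line was below every culture, and the difference was -0.95 ± 0.08 (SE, n = 3 against 3), a 1.93-fold fall with adjusted p = 0.000951 in limma. A second probe set of Mrpl23 gave -0.95 as well (adjusted p = 0.00109).

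On chromosome 7 the next gene measured beyond Mrpl23, with H19 and other noncoding genes between them in RefSeq, is Igf2, the gene of insulin-like growth factor 2, a fetal growth factor expressed from the paternal copy. Igf2 was at 12.57, 12.29 and 12.23 in the cultures and 7.80, 7.51 and 8.26 in the lines, a 22.7-fold fall (-4.50 ± 0.20, SE, limma adjusted p = 0.000166). It was high in every culture and near the median of all values in the lines. On the other side, Tnnt3 differed by 0.13 (adjusted p = 0.457). Of the 6 measured genes on each side of Mrpl23, only Igf2 and Ctsd passed the test, and Ctsd fell by 0.74 (adjusted p = 0.0161). Whether the fall of Mrpl23 is tied to that of Igf2 was not tested.

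The other 3 large subunit genes that fell changed less, and the calls of Mrpl43, Mrpl16 and Mrpl48 were lost in 3, 5 and 4 of the 6 fits without 1 array. Mrpl43, a subunit gained in mitochondria, was at 10.35, 10.25 and 10.33 in the cultures and 9.85, 9.83 and 10.05 in the lines, a difference of -0.40 (limma adjusted p = 0.0179). Mrpl16, which lies near the transfer RNA sites, was at 10.65, 10.53 and 10.57 against 10.24, 10.38 and 10.24, a difference of -0.30 (adjusted p = 0.0329). Mrpl48 of the central protuberance was at 9.82, 9.80 and 9.72 against 9.48, 9.53 and 9.51, a difference of -0.27 (adjusted p = 0.0269). In none of the 3 did a line reach the lowest culture.

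Proteins that sit together in the large subunit did not all move together. In the central protuberance (6 genes) Mrpl18 and Mrpl40 rose, Mrpl48 fell, and the median was -0.12. Mrpl38 had the lowest difference of that structure, -0.45, with adjusted p = 0.0952 in limma and groups that overlapped (9.99 to 10.29 in the cultures, 9.48 to 10.04 in the lines). At the exit tunnel and membrane side (7 genes, median 0.24) Mrpl39 rose and Mrpl23 fell. Mrpl45, which holds the ribosome at the inner membrane, was at 10.12, 10.01 and 10.10 in the cultures and 10.21, 10.58 and 10.06 in the lines (0.20, adjusted p = 0.358). Around the peptidyl transferase centre (5 genes, median -0.09) Mrpl3 rose and Mrpl16 fell.

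None of the 4 genes listed as stalk proteins passed the test, and their median was 0.07. The list sets Mrpl1, of a separate stalk, beside genes of the stalk that recruits translation factors. Mrpl1 came close, at 9.21, 9.18 and 9.09 in the cultures and 9.52, 9.83 and 9.38 in the lines (0.42, limma adjusted p = 0.0509). Its groups did not overlap. Mrpl11 had the lowest difference of the 4, -0.19 (adjusted p = 0.375). Mrpl12, which binds the factors of the stalk and also the mitochondrial RNA polymerase, was at 10.48, 10.24 and 10.40 in the cultures and 10.42, 10.51 and 10.34 in the lines, a difference of 0.05 (adjusted p = 0.756). Mrpl44, in which inherited changes cause a mitochondrial cardiomyopathy, was at 7.44, 7.53 and 7.58 against 7.85, 7.82 and 7.60 (0.24, adjusted p = 0.116). It was among the dimmest of the 77 genes.

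**Figure D2:**
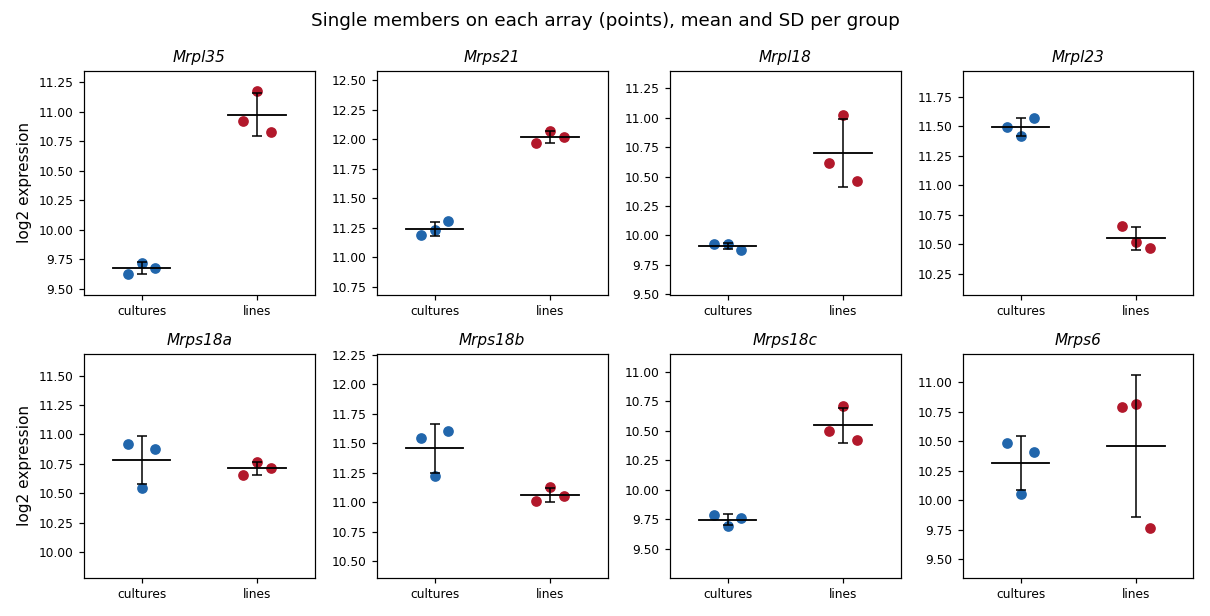
Log2 expression of 8 genes on each of the 6 arrays (points), with the mean and SD of each group of 3. Mrpl35, Mrps21, Mrpl18 and Mrps18c are higher in all 3 lines, Mrpl23 is lower in all 3, and Mrps6 is low in OS_716H only.

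The Mrps18 family holds 3 related genes, whose proteins occupy different places in the ribosome. The 3 genes took 3 different courses. Mrps18c was at 9.78, 9.70 and 9.76 in the cultures and 10.50, 10.71 and 10.43 in the lines, a rise of 0.80 ± 0.09 (SE, limma adjusted p = 0.00196). Mrps18b, reported to bind the retinoblastoma protein, was at 11.54, 11.22 and 11.60 in the cultures and 11.01, 11.13 and 11.05 in the lines. All lines were below all cultures, with culture 2 only 0.10 above OS_494H, and the difference was -0.39 ± 0.11 (adjusted p = 0.0485). That call was lost in 5 of the 6 fits without 1 array and was kept without culture 2 (adjusted p = 0.0127). Mrps18a was at 10.92, 10.55 and 10.88 in the cultures and 10.66, 10.77 and 10.71 in the lines, so the groups overlapped (-0.07, adjusted p = 0.728). Culture 2 was the lowest culture for both Mrps18a and Mrps18b.

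Mrps21, of bacterial descent, was the second of the small subunit genes by size of rise. It was at 11.19, 11.23 and 11.30 in the cultures and 11.97, 12.07 and 12.02 in the lines. The lines were within about 0.1 of each other, and the rise was 0.78 ± 0.07 (SE, limma adjusted p = 0.00109). Mrps22, a subunit specific to mitochondria and a gene of inherited respiratory chain deficiency, was at 9.46, 9.48 and 9.40 in the cultures and 9.95, 10.57 and 9.89 in the lines. OS_494H stood well above the other lines, and the rise of 0.69 ± 0.18 (adjusted p = 0.0343) was not called without any 1 of the cultures, at up to 0.113. Mrps36 was at 8.58, 8.41 and 8.74 against 8.995, 9.31 and 9.06, a rise of 0.55 (adjusted p = 0.0195) that its second probe set matched at 0.56. Mrps30, at 8.42, 8.28 and 8.45 against 8.88, 9.07 and 8.66, rose by 0.49 (adjusted p = 0.0269). Calls of Mrps36 and Mrps30 were kept in 4 and 2 of the 6 fits without 1 array. The protein of Mrps30 sits in the large subunit despite its symbol.

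The genes along the decoding site and the path of the messenger (5 genes) had a median of 0.27, and 2 of them rose. Mrps24 was at 10.19, 10.22 and 10.15 in the cultures and 10.50, 10.64 and 10.49 in the lines, a rise of 0.35 (limma adjusted p = 0.0158). Mrps11 was at 8.93, 9.12 and 9.06 against 9.25, 9.33 and 9.35, a rise of 0.27 (adjusted p = 0.0458) that was lost in each of the 6 fits without 1 array. Mrps14, a small subunit protein of bacterial descent, rose by 0.42 (adjusted p = 0.027). Calls of Mrps24 and Mrps14 were kept in 4 and 2 of the 6 fits without 1 array. Mrps12, the decoding protein related to the target of streptomycin resistance in bacteria, was at 7.72, 7.70 and 7.66 against 7.84, 7.72 and 7.80 (0.09, adjusted p = 0.392). Mrps5 was at 10.36, 10.39 and 10.38 in the cultures and spread from 9.95 in OS_716H to 10.68 in OS_494H (-0.08, adjusted p = 0.79). The cultures were all inside the range of the lines for Mrps5. Mrps15, at 11.53, 11.63 and 11.51 against 11.94, 12.11 and 11.72, just missed the test (0.37, adjusted p = 0.0566).

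The 3 lines were not alike. OS_494H was the highest line for 64 of the 77 genes (83.1%, against 39.9% of all genes and 46.5% of brighter genes), and OS_716H was the lowest for 56 (72.7%, against 32.8% and 42.9%). Other lists had the same order: OS_494H was highest for 94.7% of the genes for charging mitochondrial transfer RNAs, 79.2% of those for assembly and all 19 proliferation genes, and OS_716H lowest for 84.2%, 62.5% and 68.4%. Set against the mean of the cultures, the median over the 77 genes was 0.36 in OS_494H, 0.16 in OS_493H and 0.08 in OS_716H. OS_494H was above all cultures for 59 genes, OS_493H for 48 and OS_716H for 38. In the same order, 7143, 6362 and 7341 of all 19938 genes were above, and 5428, 5116 and 4829 of the 11632 brighter genes. OS_716H was below all cultures for 26, OS_493H for 19 and OS_494H for 8. In that order, 7080, 8814 and 7707 of all genes were below, and 4878, 4693 and 4497 of the brighter genes. The lines differ in tumour site, labelled sex, age and animal, and with 1 array each these cannot be told apart.

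**Figure D3:**
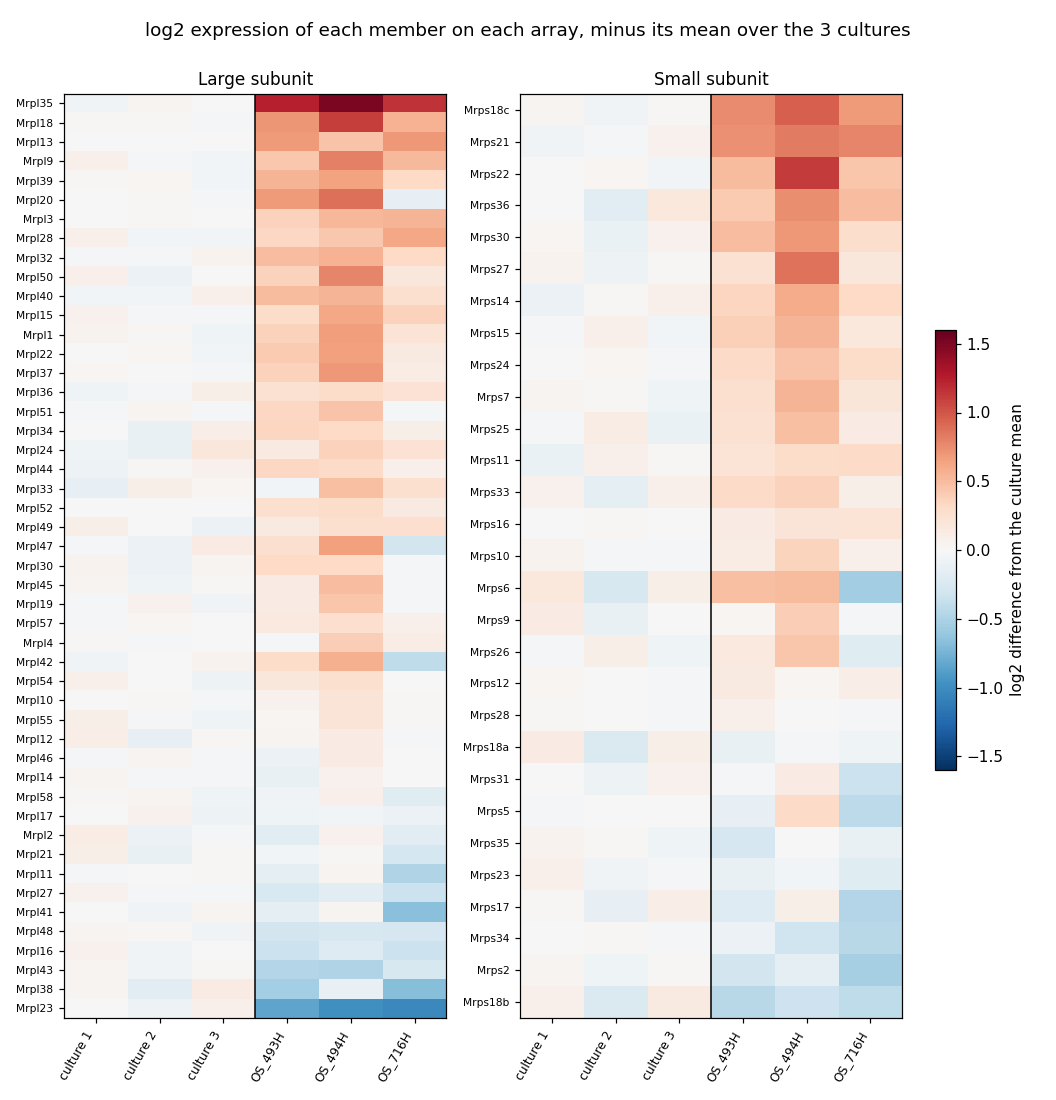
Log2 expression of each of the 77 genes on each array minus the mean of the 3 cultures, as colour, with large and small subunit genes in separate panels and in the order of their fitted difference. The OS_494H column is the highest of the lines for 64 genes and the OS_716H column the lowest for 56, and the culture columns stay near 0.

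The spread was wider among the lines than among the cultures. The SD over the lines exceeded that over the cultures for 67 of the 77 genes (87.01%, against 65.8% of all and 72.3% of brighter genes). The median SD of the 77 was 0.15 over the lines and 0.06 over the cultures. No gene differed by over 0.5 between any pair of cultures. Between OS_494H and OS_716H 17 genes did, between OS_493H and OS_716H 5, and between OS_493H and OS_494H 3. Without OS_716H 28 genes rose and 3 fell, in place of 19 and 5. Over all genes 2796 rose and 2136 fell without it, in place of 2622 and 2274. Among the 28 were Mrpl20, Mrpl1, Mrps15 and Mrpl42.

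Some genes had their lowest value of all arrays in OS_716H. Mrps6, a small subunit protein, was at 10.48, 10.05 and 10.41 in the cultures, 10.79 and 10.82 in OS_493H and OS_494H, and 9.76 in OS_716H. A line below every culture thus stood beside a pair above every culture (0.14, limma adjusted p = 0.783). Mrps6 overlaps the transporter gene Slc5a3, and whether their probes are separate was not determined. Mrpl20 was at 9.36, 9.36 and 9.32 in the cultures and 10.03, 10.23 and 9.22 in the lines (0.48, adjusted p = 0.225). Mrpl42 was at 9.29, 9.34 and 9.40 against 9.64, 9.92 and 8.93 (0.15, adjusted p = 0.712), and Mrpl47 at 8.24, 8.18 and 8.41 against 8.54, 8.94 and 7.99 (0.21, adjusted p = 0.586). All 3 repeat the order of Mrps6, with OS_494H at the top. Mrpl41 was at 9.16, 9.10 and 9.20 in the cultures and 9.01, 9.20 and 8.49 in the lines (-0.25, adjusted p = 0.371). Mrps27, which also binds RNA outside the ribosome, was highest in OS_494H, at 9.46, with 8.84 and 8.77 in the other lines, which were also above the cultures at 8.51 to 8.66 (0.43, adjusted p = 0.153).

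**Figure D4:**
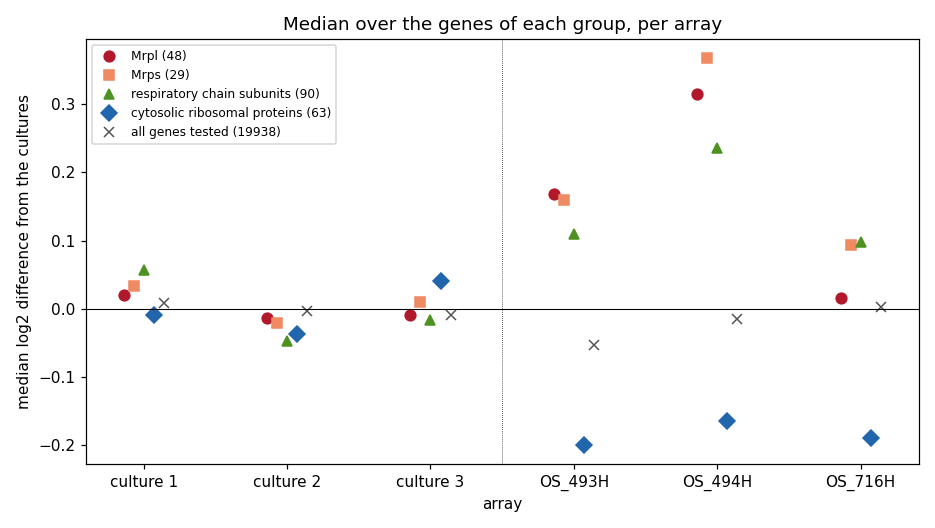
Median log2 expression on each array, relative to the cultures, of the Mrpl genes, the Mrps genes, respiratory chain subunits, cytosolic ribosomal proteins and all genes. Both mitochondrial subunits are highest in OS_494H (0.31 and 0.37) and lowest of the lines in OS_716H (0.02 and 0.09), and cytosolic ribosomal proteins are below 0 in all 3 lines.

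Ribosomal proteins of mitochondria that carry other symbols were measured for 4 genes, and 3 of them rose. Chchd1, a small subunit protein, was at 9.01, 9.19 and 9.30 in the cultures and 10.12, 10.28 and 10.24 in the lines, a 2.06-fold rise (1.05 ± 0.10, SE, limma adjusted p = 0.00113). Dap3, a GTP-binding small subunit protein also linked to cell death, was at 9.81, 9.85 and 9.90 against 10.82, 10.83 and 10.92, a 2.01-fold rise (1.01 ± 0.07, adjusted p = 0.000587). Among the 77 Mrpl and Mrps genes only Mrpl35 had a larger difference than these. Ptcd3 rose by 0.58 (adjusted p = 0.00667), and Gadd45gip1 had a difference of 0.24 (adjusted p = 0.17).

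Among proteins that work with the mitochondrial ribosome a few genes changed, in both directions. Of 15 translation factors 1 rose, Mtfmt (0.33, limma adjusted p = 0.0491), which formylates the initiator methionine, and 1 fell, Oxa1l (-0.41, adjusted p = 0.011), which inserts new proteins into the inner membrane. Tufm, the elongation factor, had a difference of 0.30 (adjusted p = 0.0809), and Lrpprc, which stabilises mitochondrial messengers, -0.52 (adjusted p = 0.0885). Of 19 genes that charge mitochondrial transfer RNAs 1 rose, Gatb (0.97, adjusted p = 0.00534), and 3 fell, led by Nars2 (-1.01, adjusted p = 0.00486) and Ears2 (-0.74, adjusted p = 0.0019). Gatb and Gatc are partners in 1 enzyme, and Gatc was the other gene that fell (-0.28, adjusted p = 0.0436). The medians of the 2 lists were both 0.03.

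Of 24 genes for assembly of the mitochondrial ribosome 2 rose, Rpusd4 by 0.58 and Noa1 by 0.50, and 3 fell, Ngrn, Ddx28 and Trub2 (-0.53, -0.43 and -0.26), with a median of -0.09. The share called was 20.8% here, 13.3% of the translation factors and 21.1% of the genes for charging transfer RNAs, all below the 24.6% of all genes. Of 11 genes for transcription and copying of mitochondrial DNA 1 rose, the single-stranded DNA binding protein Ssbp1 (0.50, limma adjusted p = 0.0207). The helicase gene Twnk (-0.69, adjusted p = 0.00901) and the polymerase gene Polg (-0.36, adjusted p = 0.022) fell. Polrmt and Tfam missed the test, with differences of -0.35 (adjusted p = 0.0518) and -0.31 (0.284). Among 12 regulators of mitochondrial gene programmes 1 rose, Gabpb2 (0.33), and 3 fell, the coactivators Ppargc1a (-1.51 ± 0.38, SE, adjusted p = 0.0304) and Ppargc1b (-0.83, adjusted p = 0.00355) and the receptor Esrra (-0.40, adjusted p = 0.0168). Nrf1, Gabpa and Myc did not pass the test (0.10, 0.20 and 0.19). Adipocyte markers, given above, fell in the same comparison as the coactivators, and their part was not tested.

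Ribosomal proteins of the cytosol fell more often than they rose. Of 63 genes 20 fell (31.7%, against 11.4% of all and 17.5% of brighter genes) and 1 rose, Rpl26 (0.41), with a median of -0.19. The 63 were found by symbol and include relatives such as Rpl3l, Rpl7l1 and Rps23rg1 and the binding protein Rps19bp1. The lines were below all cultures for 47 of the 63 (74.6%, against 21.0% of all and 26.2% of brighter genes). Rps3a1 fell by 0.81 (limma adjusted p = 0.036), Rps12 by 0.74 (adjusted p = 0.002) and Rps13 by 0.65. Under median centring 12 of the 63 fell, and in the fits without 1 array 8 to 19 did. Of 90 genes for respiratory chain and ATP synthase subunits, found by symbol and including some assembly factors, 24 rose and 7 fell. As shares, 26.7% rose, against 13.2% of all and 21.0% of brighter genes, and 7.78% fell, against 11.4% and 17.5%. The median of the 90 was 0.11. The largest falls there were Cox8b (-3.47) and Cox6a2 (-1.90), isoforms of muscle and brown fat, and the largest rise was Ndufa4 (0.93).

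**Figure D5:**
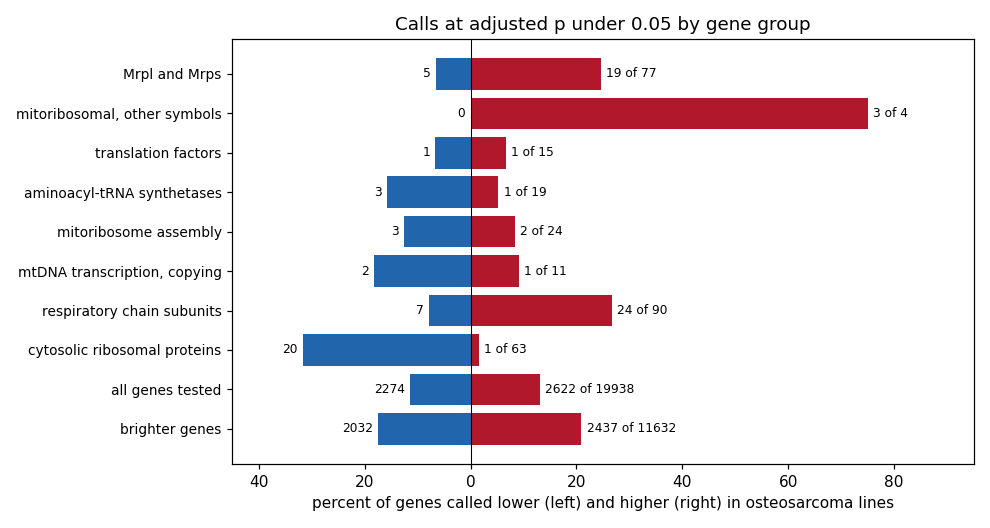
Percent of genes called lower and higher in the osteosarcoma lines (limma, adjusted p under 0.05) by gene group, beside all genes and brighter genes. Mitochondrial ribosomal proteins were called higher in 24.7% and lower in 6.49%, and cytosolic ribosomal proteins were called mostly lower (20 of 63).

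Several promoter motifs were more common in these genes than over all promoters, as a description of the sequences. The median GC content of their windows was 58.5%, against 52.7% over all windows, and no match was made for GC. The ETS motif CCGGAAG, read by GABP among others, was in 25 of 68 genes (36.8%, against 9.93% of all genes). The NRF1 motif with a free base was in 13 (19.1%, against 5.19%), which includes the 3 exact matches (4.41%, against 1.07%). The YY1 motif AAGATGG was in 13 (19.1%, against 7.28%) and the E-box CACGTG in 5 (7.35%, against 8.09%). Both strands were searched in the whole window.

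The calls were then counted by motif, without a test. Of the 25 genes with the ETS motif 5 rose and 3 fell (median 0.19), and of the others 12 rose and 2 fell (median 0.22). Of the 13 with the YY1 motif 5 rose and none fell (median 0.27), and of the others 12 rose and 5 fell (median 0.19). Of the 5 with the E-box 2 rose and none fell (median 0.39), and of the others 15 rose and 5 fell (median 0.21). The 3 genes with the exact NRF1 motif, Mrpl32, Mrpl39 and Mrpl9, all rose, which was seen after their values were known and was not tested. Of the 13 with the free base 4 rose and none fell, the fourth being Mrps21, and of the others 13 rose and 5 fell. The median was 0.20 with this motif and 0.23 without it. In Mrpl35 the only matches were to the YY1 motif, downstream of the start and outside the stretch printed, and Mrpl23 had no match in its window.

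Many of these genes start close to a gene read in the other direction. Another gene's start lay within 300 bases on the opposite strand for 21 of the 68 genes (30.9%, against 9.44% of all genes). Of the 18 distinct pairs with both genes in the fit, 13 had differences of the same sign. No such share was worked out for other gene pairs, and it was not tested. Most of the family had positive differences (55 of 77 genes). Mrpl32 starts 205 bases from Psma2, a proteasome subunit, which rose by 0.97 (limma adjusted p = 0.00201). Mrpl18 starts 238 bases from Tcp1, a subunit of the cytosolic chaperonin, which rose by 0.42 (adjusted p = 0.0129). Mrpl43 starts 116 bases from Twnk, and both fell. Mrpl57, at 0.17 (adjusted p = 0.173), starts 76 bases from the mitotic gene Ska3, which rose by 2.73. Mrpl49 (0.22, adjusted p = 0.0972) starts 192 bases from Fau, whose product includes a cytosolic ribosomal protein and which had the opposite sign (-0.28, adjusted p = 0.0197). Opposite signs were also seen where Mrpl27, at -0.25 (adjusted p = 0.058), starts 48 bases from Eme1, which rose by 0.91. The other probe set of Mrpl27 gave 0.10, the same sign as Eme1, so the sign of this pair depends on the probe set.

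Mrpl46 and Mrps11, a large and a small subunit gene, share such a promoter, and it is shown because only Mrps11 passed the test. The bases between their starts, in the direction of Mrps11, hold none of the motifs searched.
Mrps11, chr7:78783090-78783130, plus strand: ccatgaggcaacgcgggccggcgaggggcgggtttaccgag
Mrpl46 had a difference of 0.01 (limma adjusted p = 0.959) beside 0.27 for Mrps11.

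The measured signal may not come from the named gene alone where genes overlap. By RefSeq intervals 19 of the 77 genes overlap another protein-coding gene. Of these 3 were called, Mrpl18 (with Tcp1), Mrpl43 (with Twnk) and Mrpl48 (with Rab6a), where 31.2% of the 77 and 24.6% of all genes were. Where their probes lie was not determined. Probe sets of a gene mostly pointed the same way, with exceptions among genes that did not pass the test. Mrpl27 gave -0.25 by the probe set used and 0.10 by the other (limma adjusted p = 0.553), and Mrps5 gave -0.08 and 0.12. Probe sets of Mrpl41 gave -0.25 and -0.30, and those of Mrpl47 gave 0.21 and 0.06.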

How the data were processed

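Each array has 35556 deposited values, 1 for each probe set, on the log2 scale. The authors used RMA and build mm9, per the submitters' processing notes. RMA corrects background, equalises the probe distributions and summarises probes, which compresses large differences and gives no detection call. Values ran from 3.04 to 14.88. The number of arrays, not depth, limits the precision.

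Of the probe sets 21789 had 1 gene symbol, 1621 several and 12146 none. Symbols were checked in RefSeq (GRCm38.p6, 21698 found, 0 changed). Only genes with 1 symbol were tested, 19938 in all.

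All 6 arrays were fitted with limma 3.58.1 in R 4.3.3 (lmFit and eBayes), two-sided, with Benjamini-Hochberg adjustment over all genes. Errors printed with a difference are standard errors. No filter, batch or covariate was used. A permutation test of 3 against 3 cannot go below 0.1. The fit was tested on simulated data.

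The genes and lists were chosen with earlier results of these data known. Genes named singly are the called genes with the largest changes, those nearest the threshold, those most variable among lines, the extremes of each structural site, and a fixed set (the Mrps18 genes, Mrps30, Mrpl12, Mrpl41, Mrpl44, Mrpl45, Mrps12, Mrps6 and Mrpl23). Igf2, Ctsd, Tnnt3, the partners of shared promoters, Mrpl32 and the remaining called genes were named after their values were seen.

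Alternatives were quantile normalisation, median centring, brighter genes only, an intensity trend, robust moderation, weights for arrays, averaging over probe sets, testing every probe set, a threshold of 0.01, a minimum change of 1.5-fold, subunits by structure, and leaving out each array.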

Additional observations from a re-analysis of the deposited data

How the results depend on the processing

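The median difference stayed above 0 for all 77 genes and for both subunits under every alternative, at 0.12 to 0.27 for all genes, 0.11 to 0.27 for the large and 0.13 to 0.26 for the small subunit when 1 array was left out. The large minus small difference ran from -0.02 to 0.04. Counts moved more, and the cause was not tested. Leaving out 1 array gave 8 to 28 genes that rose and 1 to 7 that fell (large subunit 5 to 20 and 1 to 6, small subunit 2 to 8 and 0 to 1). Over all genes 1533 to 2796 rose and 1211 to 2314 fell in those fits. Of the 77 genes, the fewest rose without culture 1 or culture 3 (8 each, 11 without culture 2) and the most without OS_716H (28). Fewer than 5 fell without cultures 1, 2 or 3 (1, 3 and 1), OS_493H (2) or OS_716H (3). At an adjusted p under 0.01 in limma 6 genes rose and 1 fell (large 4 and 1, small 2 and 0), and with at least a 1.5-fold change 7 and 1 (large 4 and 1, small 3 and 0). Median centring and an intensity trend each left 2 that fell (large 2, small 0). Array weights gave 8 that fell, with 17 large subunit genes that rose and 2 small subunit genes that fell. Quantile normalisation also gave 2 small subunit genes that fell. Over all genes, array weights gave 3322 that rose and 2877 that fell, in place of 2622 and 2274. Quantile normalisation gave 2818 and 2278, an intensity trend 2538 and 2191, and median centring 3129 and 1800.

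Of the 24 called genes, 7 were called in each fit without 1 array, and 17 were lost in at least 1. Turns of sign are listed only for genes that did not pass and were named by the rules above or in the fixed set. Among these the sign turned for Mrps5 with the mean of its probe sets (0.017). In fits without 1 array it turned for Mrpl12 (-0.016 to 0.10), Mrpl42 (-0.059 to 0.43), Mrpl47 (-0.016 to 0.46), Mrps5 (-0.28 to 0.088) and Mrps6 (-0.037 to 0.49). Other genes of the family were not listed. No paired analysis was possible because only the cultures carry replicate numbers in the labels.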
